A study of Homo sapiens with 47 samples.

Results

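The short arm of chromosome 3 carries EAF1 close to its outer end, and the genes that follow EAF1 toward the centromere are the subject here. The members are the protein-coding genes of the count table whose lower coordinate (GRCh38) lies from 15460000 to 47999999 on chromosome 3, without symbols that start with RPL or RPS. They number 178 of the 58395 genes in the table. The interval was chosen by the measured fold changes of this same comparison, EAF1 mutant over wild type. The members' own fold changes are therefore a description. A member called tested is one that passed the filter on low counts and entered the fit across all genes. Its call, lower or higher past the threshold, comes from the contrast that chose the interval, so the calls and their counts are no evidence about the interval.

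The libraries are ribosomal RNA-depleted RNA-seq of HEK293T cells, a human embryonic kidney line, in the wild-type state or with a mutated EAF1. The mutant was made by CRISPR knock-in with a single-stranded template and a guide to exon 6 of EAF1, and on both alleles a serine, glycine, serine and aspartate run of the region that binds the Mediator subunit MED26 became alanines. Each group has 3 libraries, of 52541541 to 66611451 counts. The methods name 1 mutant line, so what belongs to the line and what belongs to the substitution cannot be told apart. The methods speak of biological replicates for the experiments in general, while the labels of these libraries do not say how the replicates were made. The p-values measure the spread between libraries. In bulk RNA, fewer cells with a transcript and less transcript per cell cannot be told apart either. DNA copy number was not measured here. The series also holds sequenced input DNA of wild-type and EAF1-mutant cells, which was not used. From the RNA counts alone, fewer copies of a gene and less RNA per copy cannot be told apart.

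EAF1 binds the elongation factors of the ELL family and takes them to Mediator. The genes beyond it share a position, not a pathway. Among them are CTNNB1 (beta-catenin, an adhesion protein and Wnt effector), the chromatin remodelling subunit SMARCC1, the topoisomerase TOP2B, nuclear receptors, and a cluster of chemokine receptor genes that is mostly used by leukocytes.

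The label of the cells was read from markers. VIM stood at 381 ± 8.97 CPM (counts scaled to library size with TMM; SD, n = 3) in wild type, NEFM at 62.4 ± 5.38 CPM, KRT18 at 34.4 ± 0.754 CPM and LIN28B at 132 ± 4.95 CPM. INA was lower, at 6.83 ± 0.529 CPM, and PAX2 was near the limit of use, at 0.679 ± 0.178 CPM. The leukocyte, liver and erythroid genes PTPRC, CD3E, ALB and HBB were each below 0.2 CPM in all 6 libraries. VIM, NEFM and KRT18 themselves differed between the groups, with log2 fold changes of -0.93, -1.31 and 0.82.

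The guide is shown because its target lies at the start of the interval. A 20-base guide from the study's oligonucleotide list matched 1 place on chromosome 3, in coding sequence of exon 6 of EAF1, on the plus strand at chr3:15439114-15439136 (GRCh38). Capitals mark the PAM that follows the match in the genome.

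EAF1 guide and PAM: gacttgcagttgagtgagtcTGG

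The predicted cut is 11.0 kb below the lower coordinate of COLQ, 20.9 kb below the lower bound of the interval and 122 kb below HACL1, the first member. The site also falls inside the annotated span of METTL6, which is transcribed from the other strand.

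The values changed abruptly at this place. EAF1 itself stood at 57.5, 58.4 and 56.5 CPM in the wild-type libraries and 19.7, 17.9 and 18.8 CPM in the EAF1-mutant libraries, a log2 fold change of -1.61 ± 0.05 (SE). This is RNA. For the EAF1 protein the paper reports, from a western blot, little change in the mutant cells. METTL6, a tRNA methyltransferase gene just outside the bound, had a log2 fold change of -1.73 ± 0.05. COLQ, which encodes the collagen tail of acetylcholinesterase and is the last gene outside the bound, stood at 3.38, 2.81 and 3.20 CPM in wild type and 2.94, 3.13 and 3.06 CPM in the mutant. Its libraries overlapped, with a log2 fold change of -0.04 ± 0.11. Inside the bound, HACL1, a peroxisomal lyase of fatty acid alpha-oxidation, had a log2 fold change of 0.13 ± 0.04, BTD, the biotinidase, -0.29 ± 0.06, and ANKRD28, a regulatory subunit of protein phosphatase 6, -0.07 ± 0.04. The bound thus lies just past the change: the members begin where the large fall has ended.

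At the other end no such change was seen. The last members were SMARCC1 (log2 fold change -0.79 ± 0.04), the mitochondrial helicase gene DHX30 (-0.66 ± 0.04) and the microtubule-binding MAP4 (-0.88 ± 0.04). Just outside were the cell-cycle phosphatase CDC25A (-0.44 ± 0.04), ZNF589 (-1.05 ± 0.04) and NME6 (-0.87 ± 0.04).

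Of the 178 members, 6 had no count in any library and 139 passed the filter on low counts; 39 did not. At least 1 CPM on average was reached by 118, and at least 10 CPM by 89. Of the 139, 97 were lower past the threshold (adjusted p under 0.01 and log2 fold change under -0.5), where 9.36% of all tested genes were, and 2 were higher, where 11.0% were. The 3 mutant libraries all lay below the 3 wild-type libraries for 119 members, against 28.1% of all tested genes, and all above for 3, against 29.2%. Since this contrast chose the interval, these counts describe it and no more. The members together made up 6971, 7092 and 6981 CPM in wild type and 4242, 4135 and 4159 CPM in the mutant. The median log2 fold change of the 139 was -0.70.

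The size of the fall changed inside the interval too. A single step fitted by least squares to the 118 members of at least 1 CPM, in order along the chromosome, fell between SGO1 and UBE2E2. The lower coordinates are 20.16 and 23.20 Mb, and the gap between the genes of 3.02 Mb holds no member of at least 1 CPM. Before the step the median of 13 members was -0.20. Past it the median of 105 members was -0.73, a difference of -0.54. Each EAF1-mutant library set against the wild-type mean gave the same place, with differences of -0.58, -0.50 and -0.51. These fits share the wild-type mean and the mutant line, so they are not independent of each other, and the interval itself was chosen from these values. The step took up 25.7% of the sum of squares, so most of the variation among the members lay on either side of it.

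**Figure D1:**
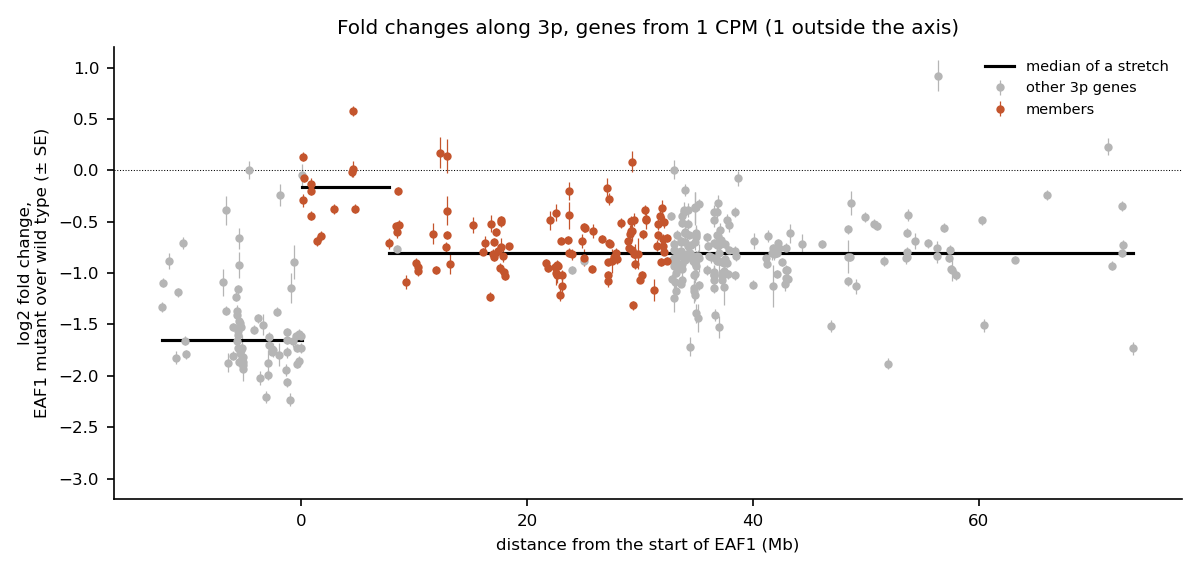
Log2 fold change (EAF1 mutant over wild type, ± SE, 3 libraries each) of the 3p genes with at least 1 CPM, by distance from the start of EAF1 in Mb; orange points are members, grey points the other 3p genes, including the left-out ribosomal protein genes, and black lines the medians of the stretches of a 2-step fit. The medians are -1.65 up to EAF1, -0.16 in the next 14 genes and -0.80 beyond; 1 gene lies outside the axis.

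A fit of 2 steps over the whole arm was chosen after the values were seen. The first step fell between EAF1 and COLQ and the second between SGO1 and UBE2E2, in the pooled values and in each of the 3 mutant libraries. The medians of the stretches were -1.65 over 70 genes, -0.16 over 14 genes and -0.80 over 293 genes. Within the members alone the place of a second step differed between libraries. It fell between an unnamed gene and RBMS3, near 28.57 Mb, in the pooled values and in mutant replicates 1 and 2, and between TBC1D5 and SATB1 in mutant replicate 3.

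The nearest stretches of the chromosome give the scale. From the telomere to EAF1 the median over 69 genes of at least 1 CPM was -1.65, from 48 to 90 Mb it was -0.83 over 184 genes, and on 3q it was 0.05 over 386 genes. Protein-coding genes of the other chromosomes had a median of -0.01 over 12849 genes. These differences were not tested.

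Of the 13 members of at least 1 CPM in the stretch next to EAF1, 2 were lower past the threshold, 1 was higher and 10 were neither, where 9.36% of all tested genes were lower and 11.0% higher. Nothing particular to the stretch is read from these counts. The phospholipase C-like gene PLCL2 stood at 27.2, 29.3 and 27.8 CPM in wild type and 17.6, 17.2 and 17.6 CPM in the mutant. All its mutant libraries were lower, with a log2 fold change of -0.69 ± 0.05. Its neighbour TBC1D5, a Rab GTPase-activating protein of the retromer pathway, had -0.64 ± 0.05. TBC1D5 and RAB5A were chosen for naming after their values were seen. RAB5A, the GTPase of early endosomes, stood at 38.7, 41.6 and 41.5 CPM in wild type and 42.3, 38.4 and 39.6 CPM in the mutant. Its libraries overlapped, with a log2 fold change of -0.02 ± 0.05. PP2D1, which shares exon bases with RAB5A, overlapped likewise, at 0.01 ± 0.08.

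KAT2B was the 1 member of at least 1 CPM that was higher past the threshold. It encodes the acetyltransferase PCAF, a coactivator that acetylates histones. It stood at 20.7, 22.4 and 21.4 CPM in wild type and 32.8, 30.3 and 32.8 CPM in the mutant. No library overlapped, and the log2 fold change was 0.57 ± 0.05. The next member, SGO1, the shugoshin that protects cohesin at centromeres, had 34.2, 35.2 and 34.3 CPM against 27.9, 26.1 and 26.1 CPM. Its log2 fold change of -0.37 ± 0.04 was within the fold limit.

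**Figure D2:**
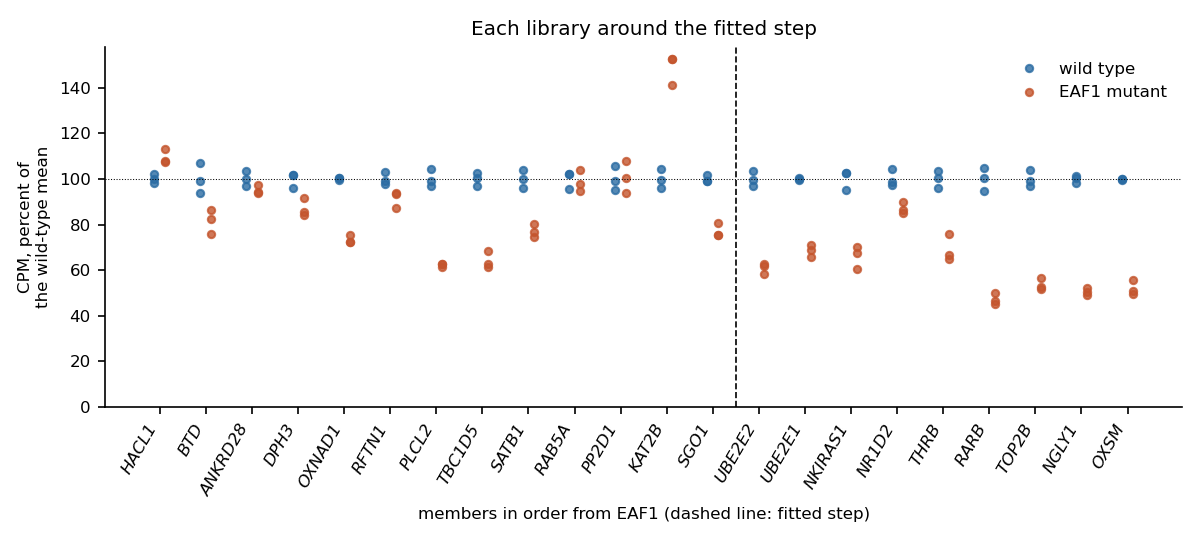
CPM of each library as a percentage of the wild-type mean, for the 13 members of at least 1 CPM before the fitted step (dashed line) and the next 9 past it, in order from EAF1; blue points are wild-type and orange points EAF1-mutant libraries. KAT2B lies above all wild-type libraries (mean 149%), while UBE2E2, the first member past the step, lies at 61.0%.

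Past the step, UBE2E2, a ubiquitin-conjugating enzyme, stood at 23.7, 25.3 and 24.3 CPM in wild type and 15.1, 14.3 and 15.3 CPM in the mutant, a log2 fold change of -0.71 ± 0.05. Its paralog UBE2E1 followed with -0.55 ± 0.04 and NKIRAS1, an inhibitor of NF-kappa-B signalling, with -0.60 ± 0.06. UBE2E1 and NKIRAS1 share 33.8% and 28.3% of their exon bases with neighbouring genes, and no source used here states the strand setting of the counting. Their values are uncertain for that reason, and with library totals alone they were -0.43 and -0.48, short of the fold limit. Such sharing was common, since 75 of the 139 tested members share at least some exon bases with another gene.

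Of the 105 members past the step, 86 were lower past the threshold and 19 were neither, beside the same 9.36% and 11.0% of all tested genes. These calls come from the contrast that chose the interval. The log2 fold change was under -1 in 14, from -1 to under -0.5 in 72, and -0.5 or above in 19. The interquartile range was 0.36, against a median SE of 0.05, so the members differed from each other by more than the error of a single gene. Such a spread was not particular to the stretch. The interquartile range was 0.33 from 48 to 90 Mb, 0.46 on 3q and 0.45 over protein-coding genes of the other chromosomes. In windows of 4 Mb the medians were -0.92 from 24 to 28 Mb over 8 members, -0.67 from 28 to 32 Mb over 8, -0.78 from 32 to 36 Mb over 15, -0.92 from 36 to 40 Mb over 18, -0.71 from 40 to 44 Mb over 19 and -0.67 from 44 to 48 Mb over 33. They showed no steady trend, and across the 105 genes Spearman's rho with the distance from EAF1 was 0.07. With the wild-type level it was -0.33 and with the gene's length -0.23. The wild-type level is also part of the fold change, so the rho of -0.33 can arise in part from that. The correlations are descriptions across genes of the same libraries, which are not independent replicates.

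The spread was widest at low levels. Past the step, the median was -0.78 and the highest value -0.20 over the 77 members that reached 10 CPM. Over the 28 members from 1 to 10 CPM the median was -0.56 and the highest value 0.17. The 20 tested members under 1 CPM past the step ran from -2.08 to 2.75, with a median SE of 0.29.

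The largest falls among the members of at least 1 CPM were past the step, and 4 are described. KIF15, a mitotic kinesin, stood at 70.3, 74.0 and 70.4 CPM in wild type and 30.1, 27.5 and 28.7 CPM in the mutant. This is 40.2% of the wild-type mean. GPD1L, which resembles glycerol-3-phosphate dehydrogenase, stood at 46.8, 47.3 and 46.9 CPM against 20.5, 19.5 and 20.1 CPM, or 42.6%. XYLB, the xylulokinase, was at 43.0% and the Rab5 exchange factor relative ALS2CL at 44.6%. In these genes the mutant libraries lay far below the wild-type libraries. The mutant libraries lay close to one another in KIF15 and GPD1L. They were less close in XYLB (11.92, 13.85 and 14.26 CPM) and ALS2CL (2.317, 1.924 and 2.042 CPM).

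Among the members of at least 1 CPM, the 5 highest values were those of KAT2B, EOMES, ZCWPW2, HACL1 and ZNF502. EOMES, a T-box factor of early development and lymphocytes, stood at 1.59, 1.19 and 1.35 CPM in wild type and 1.66, 1.57 and 1.45 CPM in the mutant. Its libraries overlapped, with a log2 fold change of 0.17 ± 0.15. ZCWPW2 had 0.14 ± 0.17, with 22.8% of its exon bases shared with neighbours, and the zinc finger gene ZNF502 0.09 ± 0.10. Among all tested genes, 28.1% had all mutant libraries below all wild-type libraries. Of the 118 members, 10 did not, 5 of the 13 before the step and 5 of the 105 past it. These counts describe the interval, which this contrast chose. Before the step the exceptions were HACL1, ANKRD28, RAB5A, PP2D1 and KAT2B, and past it EOMES, ZCWPW2, CSRNP1, VIPR1 and ZNF502. CSRNP1 and VIPR1 were chosen for naming after their values were seen. All 5 past the step were under 10 CPM.

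The members with the most RNA per kb of exon in wild type were CTNNB1, SMARCC1, STT3B, HIGD1A and UBE2E1, at 53.5, 50.2, 48.6, 43.1 and 36.7 CPM per kb. CTNNB1 stood at 643, 632 and 613 CPM in wild type and 335, 324 and 311 CPM in the mutant, a log2 fold change of -0.96 ± 0.04. STT3B, a catalytic subunit of the oligosaccharyltransferase, stood at 246, 246 and 238 CPM against 145, 137 and 139 CPM, with -0.79 ± 0.04. Both genes had mutant libraries well clear of the wild-type libraries.

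**Figure D3:**
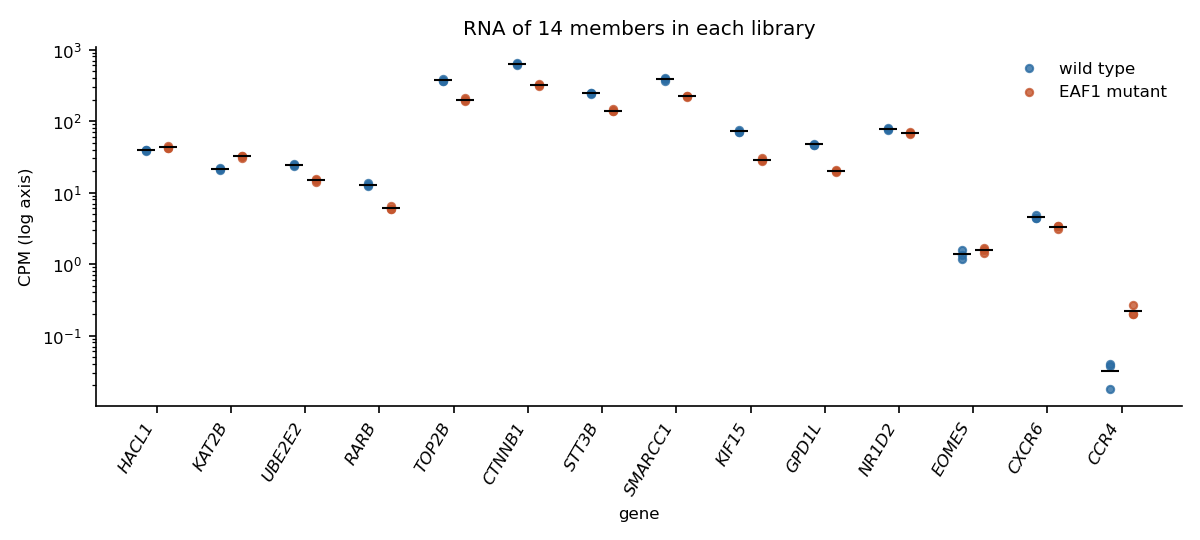
CPM (log axis) of 14 members in the 3 wild-type (blue) and 3 EAF1-mutant (orange) libraries, with group means as black bars. Mutant libraries lie below wild type in UBE2E2, RARB, TOP2B, CTNNB1, STT3B, SMARCC1, KIF15, GPD1L, NR1D2 and CXCR6, above it in HACL1, KAT2B and CCR4, and overlap it in EOMES.

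Grouped by function, most lists with several expressed members were centred near the value of the whole interval. The counts of each list stand beside 69.8% lower and 1.44% higher among all tested members, and 9.36% and 11.0% among all tested genes, and nothing particular to a list is read from them. Of 18 chromatin and transcription regulators, 17 were tested, 11 were lower, 1 was higher and 5 were neither, with a median of -0.78. The list also holds the kinase gene SNRK and the signalling genes NKIRAS1 and ARPP21. TOP2B, which relieves torsion at transcribed genes, stood at 359, 385 and 368 CPM in wild type and 209, 192 and 195 CPM in the mutant. SMARCC1, a core subunit of BAF complexes, stood at 364, 397 and 387 CPM against 225, 217 and 221 CPM. NKTR, a cyclophilin-related protein, had a log2 fold change of -0.90 ± 0.04. All their mutant libraries were lower.

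The 3 nuclear receptor genes lie side by side yet differed. NR1D2, a circadian repressor, had the smallest change, at 76.5, 81.0 and 75.6 CPM in wild type and 69.8, 67.3 and 65.9 CPM in the mutant. Its log2 fold change was -0.20 ± 0.04, and -0.08 with library totals alone. THRB, a thyroid hormone receptor, had -0.54 ± 0.06, but -0.42 with library totals alone and -0.49 without mutant replicate 3, both within the fold limit. RARB, a retinoic acid receptor, stood at 13.5, 12.2 and 13.0 CPM against 6.41, 5.97 and 5.84 CPM, with -1.09 ± 0.07. The distance between NR1D2 and RARB was thus many times their errors, although no test between genes was made.

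A list of 12 genes drawn up for mitochondrial proteins also holds HACL1, XYLB and ANO10, whose proteins are peroxisomal or not known chiefly from mitochondria. All 12 were tested, 10 were lower, and HACL1 and OXNAD1, which lie before the step, were neither. LARS2, the mitochondrial leucyl-tRNA synthetase, stood at 114, 111 and 115 CPM in wild type and 54.0, 54.0 and 54.3 CPM in the mutant. Its log2 fold change was -1.06 ± 0.04, and that of HIGD1A, a respiratory chain assembly protein, -0.71 ± 0.04. Of 10 genes of peroxisomes, lipids and vitamins, 9 were tested and 7 were lower, with a median of -0.67. The 7 include the activin receptor gene ACVR2B, which does not belong to these functions. SCAP, the escort of the sterol-regulated transcription factors, had -0.67 ± 0.05 and the phosphoinositide phosphatase gene SACM1L -0.62 ± 0.04.

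Among 7 genes of glycosylation and the lysosome, 6 were tested and 5 were lower. The median was -0.86. GLB1, the lysosomal beta-galactosidase, had a log2 fold change of -0.95 ± 0.05, NGLY1, the cytosolic glycanase, -0.98 ± 0.04, and CRTAP, of collagen prolyl hydroxylation, -0.48 ± 0.04, just short of the fold limit, which it passed without wild-type replicate 2 (-0.51) or 3 (-0.50). All 14 genes of membrane traffic were tested and 8 were lower, among them SLC4A7, a bicarbonate transporter rather than a traffic protein. GOLGA4, a golgin, stood at 217, 229 and 212 CPM in wild type and 117, 112 and 111 CPM in the mutant. PDCD6IP, the ESCRT partner ALIX, had -0.74 ± 0.04, SLC4A7 -0.97 ± 0.04 and SEC22C -1.02 ± 0.04.

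All 12 genes of microtubules, motors and cilia were tested and 8 were lower, with a median of -0.73. The list also holds the adaptor gene STAC. Beside KIF15 and MAP4 these included CLASP2, which stabilises microtubule ends, at -1.03 ± 0.04, and DYNC1LI1, a light intermediate chain of dynein, at -0.84 ± 0.04. Of 8 genes of the ubiquitin pathway, 7 were tested and 6 were lower. The tested gene that was not lower was ANKRD28, named above as a subunit of protein phosphatase 6. WDR48, an activator of deubiquitinases, had -0.68 ± 0.04 and KLHL18, an adaptor of cullin ligases, -0.89 ± 0.04. Of 11 genes of RNA processing and translation, 10 were tested and 9 were lower, among them CNOT10 of the CCR4-NOT deadenylase, at -0.60 ± 0.04 (-0.48 with library totals alone, within the fold limit). The exception was DPH3, of diphthamide synthesis, which lies before the step.

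Of 16 zinc finger genes of the C2H2 type, 13 were tested and 7 were lower, with a median of -0.56. ZNF445, a factor of imprinting control, had a log2 fold change of -0.75 ± 0.04, ZNF621 -0.56 ± 0.04 and ZNF620 -0.56 ± 0.05. With library totals alone ZNF621 and ZNF620 were within the fold limit, at -0.45 and -0.44. ZNF197, at -0.50 ± 0.05, was not past the threshold, though it was with DESeq2 (-0.51) and without wild-type replicate 1 (-0.54), wild-type replicate 2 (-0.50) or mutant replicate 1 (-0.51). Receptors, adaptors and their signalling partners gave 9 tested of 11 and 7 lower, with a median of -0.69. The activin receptor gene ACVR2B had -0.68 ± 0.04, the stress kinase gene OXSR1 -0.93 ± 0.04 and the TGF-beta receptor gene TGFBR2 -0.53 ± 0.08 (-0.42 with library totals alone, within the fold limit). CMTM6, which keeps PD-L1 at the cell surface, had -0.70 ± 0.04, CMTM7 -0.81 ± 0.04 and CMTM8 -0.52 ± 0.09. The call of CMTM8 was lost with library totals alone (-0.40), with a filter of 1 CPM (-0.50) and without mutant replicate 2 (-0.47).

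**Figure D4:**
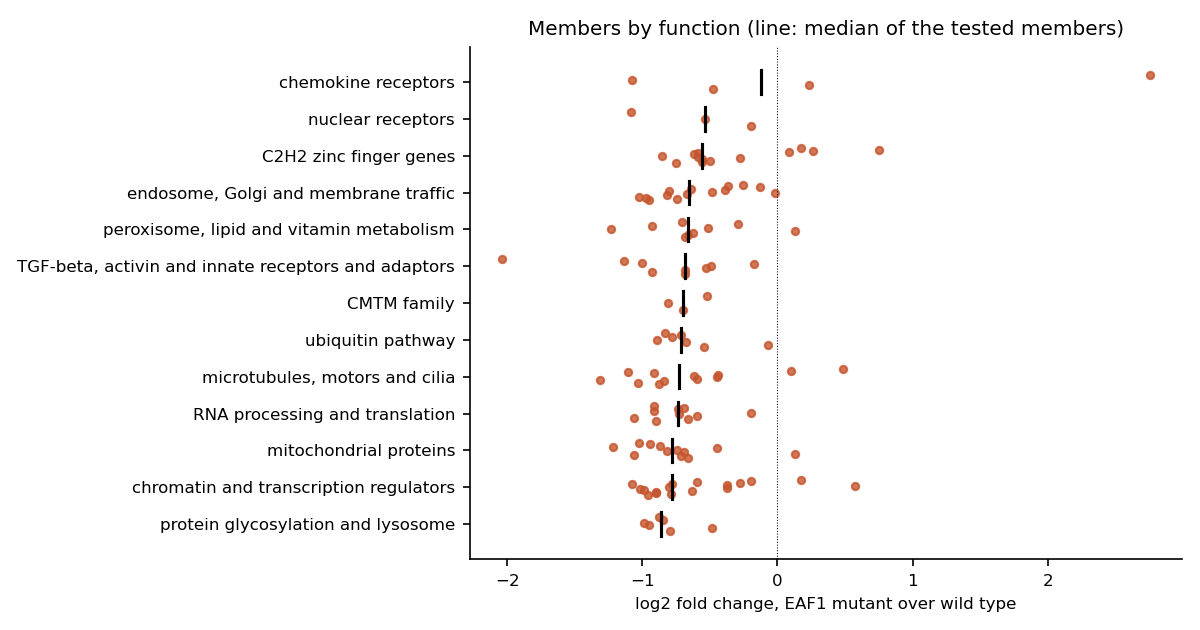
Log2 fold change (EAF1 mutant over wild type) of the tested members of each functional list, 1 point a gene, with the list's median as a black line; the lists share some genes. Most medians lie from -0.86 to -0.54, and the chemokine receptors, with 4 tested genes, have a median of -0.12.

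The chemokine receptor genes had little RNA. Of 12 chemokine receptor genes, 8 did not pass the filter. CXCR6 had the most RNA, at 4.42, 4.47 and 4.90 CPM in wild type and 3.09, 3.45 and 3.37 CPM in the mutant (log2 fold change -0.48 ± 0.10). It passed the threshold without wild-type replicate 1 (-0.52), wild-type replicate 2 (-0.50) or mutant replicate 2 (-0.51). ACKR2 and CCR9 were below 1 CPM in every library, and CCR9 passed the threshold without wild-type replicate 2 (-1.30) or mutant replicate 2 (-1.34). CCR4 was the other member higher past the threshold, at 0.0177, 0.0396 and 0.0374 CPM in wild type and 0.269, 0.198 and 0.203 CPM in the mutant. These are a few reads in wild type, and the log2 fold change was 2.75 ± 0.54.

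CG dinucleotides, the usual sites of DNA methylation and common in promoters of widely used genes, were counted in RefSeq promoters (GRCh38.p14, 300 bases each). An entry was matched for 148 members. At least 20 CG were held by 68.0% of the 100 matched members of at least 1 CPM and by 45.8% of the 48 under 1 CPM, against 41.2% of all 27305 promoters. Methylation was not measured. The median was 29.0 CG before the step and 27.0 CG past it among members of at least 1 CPM.

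Relatives of members on other chromosomes, from the same gene family or enzyme class, were not used by the rule and could be tested. The list of relatives was drawn up with earlier results of these data known. All 40 were tested, and in edgeR's quasi-likelihood test 1 was lower past the threshold and 3 were higher, where 9.36% and 11.0% of all genes were. Their median log2 fold change was 0.05, and that of their 40 partners among the members was -0.75. AJUBA, a relative of the LIM protein gene LIMD1, stood at 16.8 ± 0.425 CPM in wild type and 9.97 ± 0.597 CPM in the mutant (SD, n = 3; log2 fold change -0.76 ± 0.06, edgeR adjusted p = 2.25e-10). JUP, plakoglobin and the closest relative of CTNNB1, stood at 26.5 ± 1.14 CPM and 53.6 ± 2.40 CPM (1.02 ± 0.05, edgeR adjusted p = 1.41e-14). PLCL1, the relative of PLCL2, rose by 1.07 ± 0.09 on the log2 scale (edgeR adjusted p = 1.26e-09), and MAP2, the relative of MAP4, by 1.81 ± 0.16 (edgeR adjusted p = 1.25e-09).

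The remaining relatives were within the fold limit. STT3A, the other catalytic subunit beside STT3B, stood at 208 ± 3.92 CPM in wild type and 208 ± 2.05 CPM in the mutant (edgeR adjusted p = 0.977). TOP2A, the relative of TOP2B, had a log2 fold change of -0.08 ± 0.04 (edgeR adjusted p = 0.0609). SMARCC2, the relative of SMARCC1, was slightly higher, by 0.20 ± 0.04 (edgeR adjusted p = 0.000118). KAT2A, the relative of KAT2B, had 0.09 ± 0.04 (edgeR adjusted p = 0.075). Whether members and relatives differed as groups was not tested, since the members were chosen by their own values.

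**Figure D5:**
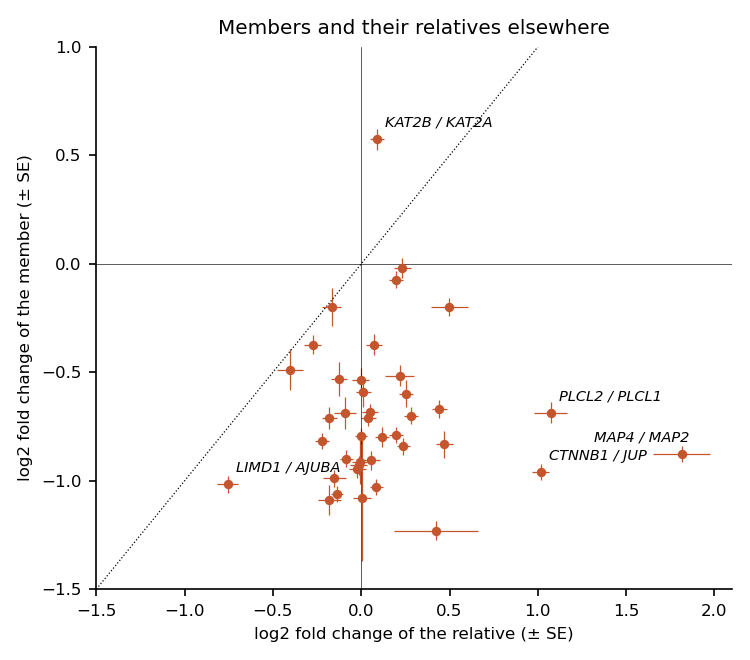
Log2 fold change (EAF1 mutant over wild type, ± SE) of 40 members (vertical axis) and of their relatives on other chromosomes (horizontal axis); the dotted line marks equal values. In 39 of 40 pairs the point lies below the line, and KAT2B with KAT2A is the pair above it. The members' own values chose the interval, so this count is a description and no evidence.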

How the data were processed

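Per the methods, RNA was depleted of ribosomal RNA, made into stranded libraries and read in pairs; reads were trimmed, aligned to GRCh38 with HISAT2 and counted with Rsubread. The submitters' processing notes name bcl2fastq 2.18. The deposited values are raw counts per gene made by the authors; how strand and multiply mapped reads were treated is not given in the sources used here. Positions come from GENCODE 44.

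Counts were scaled with TMM, filtered with filterByExpr and fitted with edgeR 4.0.16 (quasi-likelihood test, Benjamini-Hochberg over 28025 genes, R 4.3.3); DESeq2 1.42.0 was an alternative. The common biological coefficient of variation was 4.11%. Fits were tested on simulated data. No pair of replicates agreed within sampling noise (mean chi-square per gene from 3.38 to 12.1). Steps needed at least 5 genes a side. The genes named were the extremes, those beside the step and the bounds, those with the most RNA per kb, those higher past the threshold and the most abundant of the lists; TBC1D5, RAB5A, CSRNP1 and VIPR1 were added after their values were seen. Members and lists were chosen with earlier results of these data known. Some genes of the interval are not reported here.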

Additional observations from a re-analysis of the deposited data

How the results depend on the processing

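The median log2 fold change of the tested members was -0.58 with library totals alone, -0.68 with DESeq2, -0.67 without the filter, -0.68 with a filter of 1 CPM and -0.74 without members that share exon bases, and ranged from -0.72 to -0.69 when a library was left out. Exon bases were shared with another gene by 75 of the 139 tested members. Library totals moved the median of all genes from 0.01 to 0.13, and the share of higher among called genes from 53.9% to 69.4%. Members near 0 before the step can change sign with that shift. Past the step, ZCWPW2 was -0.0156 without wild-type replicate 3 and ZNF502 -0.0039 without wild-type replicate 1. EOMES ranged from 0.07 to 0.28 when a library was left out. The cause of these moves was not tested beyond the setting itself.

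The step stayed at UBE2E2 in all settings run, among them a fit to all tested members chosen after seeing the data, and at 23.4 Mb when placed by gene midpoints. With adjusted p under 0.05 and no fold limit, 117 members were lower and 4 higher, and of the 40 relatives 10 were lower and 14 higher, where 25.6% and 25.9% of all tested genes were lower and higher. With a log2 fold change over 1 in size, 19 members were lower and 1 higher and, in edgeR, 0 relatives were lower and 3 higher, where 2.49% and 5.18% of all tested genes were. With a filter of 1 CPM, 1 member was higher, where 2184 of all 19220 tested genes were. Lower members numbered 79 with library totals alone, 84 with a filter of 1 CPM and 94 with DESeq2, against 97. They numbered 98 without the filter and 93 to 101 when a library was left out. Among all tested genes, 1840 of 28025 were lower with library totals alone and 2062 of 19220 with a filter of 1 CPM. DESeq2 gave 2388 of 49036 and the fit without the filter 2793 of 49036. The replicate block gave 2631 of 28025 and fits without a library 2493 to 2664, against 2624 of 28025. With the replicate block the median was -0.70 and 97 members were lower. Same-numbered libraries did not deviate together, with correlations of -0.003, -0.105 and 0.034. Differently numbered libraries gave -0.123 to 0.117. The labels do not say whether the libraries were made in pairs, and these values do not decide it. Of 67 named genes tested, none reversed a call, 8 lost it in at least 1 setting and 4 gained it. All 8 lost it with library totals alone: UBE2E1 (-0.43), NKIRAS1 (-0.48), THRB (-0.42), ZNF621 (-0.45), ZNF620 (-0.44), TGFBR2 (-0.42), CMTM8 (-0.40) and CNOT10 (-0.48). THRB also lost it without mutant replicate 3 (-0.49), and CMTM8 without mutant replicate 2 (-0.47) and with a filter of 1 CPM (-0.50). ZNF197, CXCR6, CCR9 and CRTAP gained it without 1 library or another, ZNF197 also with DESeq2 and CCR9 also without the filter. Depth limits members under 1 CPM most.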

Other observations

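Of 90 long non-coding RNA genes in the interval, 26 had at least 1 CPM, with a median log2 fold change of -0.37, -0.37 over 3 genes before the step and -0.38 over 23 past it. Of the 23, 10 were lower past the threshold and 3 were higher, where 9.36% and 11.0% of all tested genes were. The ribosomal protein genes that the rule left out stood with the members: RPL15 had -0.76 ± 0.03, RPSA -0.97 ± 0.04 and RPL14 -0.89 ± 0.03. Whether the non-coding and coding genes differ was not tested.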
